A study of Mus musculus with 6 samples.

Results

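Lipid droplets are stores of triglyceride in which heart muscle holds fatty acids between uptake and oxidation. Perilipins coat the droplet and control access to it, the lipases Pnpla2 and Lipe release fatty acids from it, and the DGAT enzymes carry out the last step of triglyceride synthesis. This account follows 10 genes of that cycle, chosen by name among the 35976 genes of the deposited count table: the perilipins Plin2, Plin3, Plin4 and Plin5, the lipase genes Pnpla2, Pnpla3 and Lipe, the lipase inhibitor gene G0s2, and the triglyceride synthase genes Dgat1 and Dgat2. All 10 were present in the table and all 10 passed the filter on low counts.

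The edited hearts (sgRNA7) came from wild-type mice given an adeno-associated virus with the adenine base editor TadA8e-Sauri behind the MYL2 promoter, active in heart muscle, and a U6-driven guide, sgRNA7, against Camk2d (AAV-MYL2-TadA8e-Sauri-U6-Camk2d sgRNA7). The control hearts came from wild-type mice with no treatment, so the virus, the editor and the edit are all part of the same contrast. Each group had 3 libraries. The labels give neither age nor sex, and they do not say in words that each replicate was a separate animal, so p-values measure the spread between these libraries. Total counts were 17265842 to 23097998 in sgRNA7 libraries and 17062412 to 19743748 in control libraries. Camk2d, the gene aimed at, had 138, 130 and 164 CPM (counts scaled by TMM to a library total of 1000000) in sgRNA7 hearts 1, 2 and 3, against 226, 220 and 224 CPM in control hearts 1, 2 and 3.

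Of the 10 genes, 4 were lower in sgRNA7 hearts, namely Pnpla3, Dgat2, Plin5 and Plin4, and 0 were higher. Among all 14879 tested genes, 4.74% were called lower and 4.93% higher by the same rule, an adjusted p below 0.05 in edgeR's quasi-likelihood test. The count of 0 higher was also 0 at an unadjusted p below 0.05, in DESeq2 and in limma voom, where adjusted calls again gave 4 lower. The median log2 fold change of the 10 genes was -0.12, beside 0.0013 over all tested genes. The 4 genes called lower had sgRNA7 libraries that all lay below the control libraries, which held for 14.7% of tested genes. The groups overlapped for the other 6 genes.

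**Figure D1:**
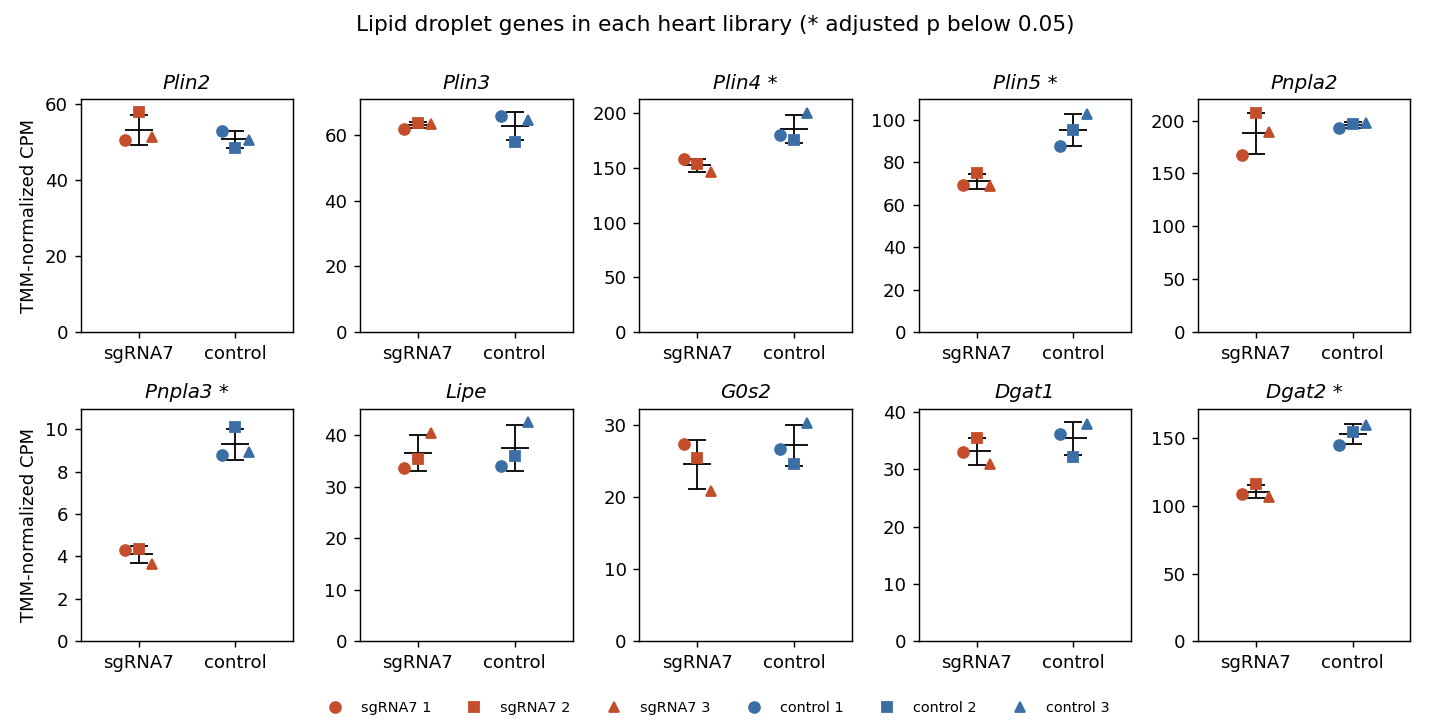
TMM-normalized CPM of each gene (y axis, from 0) in the 3 sgRNA7 and 3 control libraries; symbols mark the replicate, and the bar and whiskers are the mean and SD of each group (n = 3). The sgRNA7 points of Plin4, Plin5, Pnpla3 and Dgat2 all sit below the control points, and the groups overlap in the other 6 panels.

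Plin5 is the perilipin of oxidative tissues, where it ties the droplet to mitochondria and holds back lipolysis by binding Pnpla2 and its activator. It had 69.2, 74.98 and 68.6 CPM in sgRNA7 hearts 1, 2 and 3, against 87.5, 94.9 and 103 CPM in control hearts 1, 2 and 3. Every sgRNA7 heart was below every control heart, with the smallest gap between sgRNA7 2 and control 1. The log2 fold change was -0.42 (SE 0.07), or 74.6% of control (68.0% to 81.8% at ±2 SE), and the adjusted p in edgeR's quasi-likelihood test was 0.00176.

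Plin4, a perilipin with a long repeat region that binds newly formed droplets, had 158, 154 and 146 CPM in sgRNA7 hearts 1, 2 and 3, against 180, 176 and 200 CPM in control hearts 1, 2 and 3. Its groups did not overlap either, but the step was smaller, at 82.4% of the control level (log2 -0.28, SE 0.06; edgeR adjusted p = 0.0103). The call was lost without sgRNA7 3 (log2 -0.25, adjusted p 0.0688) and without control 3 (log2 -0.22, adjusted p 0.0917), where lower calls over all genes also fell to 328 and 198, against 705 with all libraries.

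Plin2 (chr4:86626854-86670059 in mm10, minus strand), the perilipin that coats droplets in most cells other than fat cells, did not pass the test. It had 50.4, 57.7 and 51.3 CPM in sgRNA7 hearts 1, 2 and 3, against 52.9, 48.3 and 50.6 CPM in control hearts 1, 2 and 3. The highest value was that of sgRNA7 2, and the other 5 libraries lay close together. Its log2 fold change was 0.07 (SE 0.07), and ±2 SE spans 95.8% to 115% of control. Plin3, a cytosolic perilipin that moves to new droplets, had 61.8 to 63.7 CPM in sgRNA7 hearts, within the control range of 57.9 to 65.8 CPM. Its log2 fold change was 0.01 (SE 0.06), and ±2 SE spans 92.2% to 109% of control.

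Per kb of deposited exon length, Plin5 was the highest perilipin RNA in both groups. It stood at 33.8 ± 1.68 CPM per kb in sgRNA7 hearts and 45.2 ± 3.58 in control hearts (SD, n = 3 each). In CPM not set per length, Plin4 was the highest, with means of 153 in sgRNA7 and 185 in control hearts. The order rests on deposited lengths of 7043 bases for Plin4 and 2101 for Plin5. Deposited exons also found in GENCODE M21 were 36.8% for Plin2, 87.5% for Plin3, 45.0% for Plin4 and 64.3% for Plin5. Within each library, Plin5 made up 33.0%, 33.9% and 33.0% of the summed CPM per kb of the 4 perilipins in sgRNA7 hearts 1, 2 and 3, against 36.4%, 40.3% and 39.7% in control hearts 1, 2 and 3. The Plin5 share was lower in 3 of 3 sgRNA7 hearts than in any control heart. The Plin2 share was 15.9%, 17.3% and 16.3% in sgRNA7 hearts, against 14.6%, 13.5% and 12.9% in control hearts, and here every sgRNA7 heart was above every control heart. Since Plin2 and Plin3 levels did not pass the test and Plin5 and Plin4 in the sum were lower, the higher Plin2 and Plin3 shares are the counterpart of the lower Plin5 share and no separate result. For both shares the two-sided exact permutation test over the 20 arrangements of the 6 libraries gave p = 0.1, the smallest that 3 against 3 allows, so neither can pass 0.05. The Plin3 share was 28.1% to 29.7% in sgRNA7 hearts and 23.9% to 26.7% in control hearts. The Plin4 share overlapped between groups, at 20.8% to 22.5% in sgRNA7 hearts and 22.3% to 23.1% in control hearts. These shares do not depend on how the libraries are scaled, but their sizes do depend on the exon lengths. The log2 difference of the Plin5 share was -0.22 per kb and -0.21 as a share of counts.

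**Figure D2:**
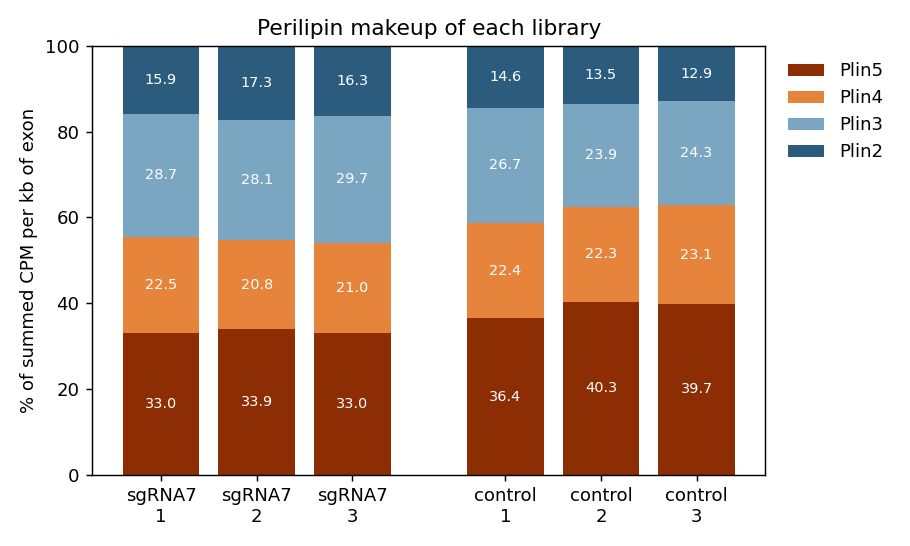
Share of each perilipin in the summed CPM per kb of exon of Plin2, Plin3, Plin4 and Plin5 (y axis, percent), 1 bar per library, with sgRNA7 hearts on the left and control hearts on the right. The Plin5 segment is 33.0% to 33.9% in sgRNA7 hearts and 36.4% to 40.3% in control hearts.

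Plin4, Plin5 and Plin3 are neighbours on the minus strand of mouse chromosome 17 (mm10, coordinates of the deposited table). Plin4 lies at chr17:56100587-56109953, Plin5 at chr17:56111597-56117606 and Plin3 at chr17:56278962-56290511. Between Plin4 and Plin5 lie 1643 bases and 0 other genes of the table, and between Plin5 and Plin3 161355 bases and 9 genes. Of the 11 genes within 100 kb of Plin5, Plin4 was the gene called lower, and Chaf1a, a subunit of a chromatin assembly factor, was called higher (14.3 ± 0.714 CPM in sgRNA7 hearts and 11.1 ± 1.75 CPM in control hearts, SD, n = 3 each; edgeR adjusted p = 0.0465). Chaf1a lost its call without sgRNA7 1, sgRNA7 3, control 2 or control 3 (adjusted p 0.108, 0.115, 0.1575 and 0.2305). The other 9 were not called. Over all tested genes, 4.74% were called lower and 4.93% higher. Lrg1, a secreted glycoprotein whose gene lies 2072 bases from Plin5, had 6.48, 7.12 and 6.31 CPM in sgRNA7 hearts, against 6.22, 8.22 and 9.40 CPM in control hearts (log2 -0.27, SE 0.15; edgeR adjusted p = 0.287), with overlapping groups.

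The promoter windows of 3 of the 4 genes called lower are shown. Whether these genes share regulation was not tested. Each window runs from 250 bases before to 50 bases after a RefSeq transcript start (GRCm38.p6, the assembly behind mm10). The bases read 5′ to 3′ on the gene's strand. Capitals mark AGGTCA, the half-site of many nuclear receptors, or its reverse complement TGACCT. The Plin5 window is chr17:56117499-56117798 on the minus strand, the Plin4 window chr17:56109733-56110032 on the minus strand, and the Pnpla3 window chr15:84167566-84167865 on the plus strand.
Plin5: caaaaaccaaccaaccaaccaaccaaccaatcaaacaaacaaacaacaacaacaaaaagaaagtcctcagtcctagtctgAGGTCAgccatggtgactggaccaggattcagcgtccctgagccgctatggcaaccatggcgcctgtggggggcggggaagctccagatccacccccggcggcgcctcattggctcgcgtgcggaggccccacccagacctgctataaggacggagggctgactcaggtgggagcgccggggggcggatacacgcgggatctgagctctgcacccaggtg
Plin4: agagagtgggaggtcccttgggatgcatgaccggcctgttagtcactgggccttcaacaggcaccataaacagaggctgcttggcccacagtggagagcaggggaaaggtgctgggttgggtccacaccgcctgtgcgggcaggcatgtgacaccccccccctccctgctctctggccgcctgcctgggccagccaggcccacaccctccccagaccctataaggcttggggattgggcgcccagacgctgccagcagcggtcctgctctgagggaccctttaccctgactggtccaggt
Pnpla3: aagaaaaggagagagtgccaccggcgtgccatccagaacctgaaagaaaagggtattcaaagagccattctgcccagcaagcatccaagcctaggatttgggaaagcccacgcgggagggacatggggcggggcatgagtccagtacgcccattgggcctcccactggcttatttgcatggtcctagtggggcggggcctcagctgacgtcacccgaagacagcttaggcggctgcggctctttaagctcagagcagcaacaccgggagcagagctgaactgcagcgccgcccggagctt
The Plin5 window holds 1 match, whose first base is at -170 from the start, and the Plin4 and Pnpla3 windows hold 0. RefSeq windows were matched for 8 of the 10 genes, with a further start each for Plin5 and Lipe. The further Plin5 window holds 1 match of its own, and of the other genes Plin2 has 1 and the rest have 0. On either strand, 16.3% of all 32851 windows hold this motif. The longer ERR receptor motif TCAAGGTCA (reverse complement TGACCTTGA), which contains the half-site, is in 0.423% of all windows and in 0 of those of these genes. The E-box CACGTG is in 7.15% of all windows and here in those of Plin2 and of 1 of the 2 Lipe starts, neither of which was called. A match shows only that the letters are there.

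Pnpla3 had the largest fold change among the 10 genes. Its product is a relative of Pnpla2 that sits on lipid droplets and is best known from liver; the gene lies at chr15:84167784-84189521 on the plus strand. It had 4.31, 4.35 and 3.63 CPM in sgRNA7 hearts 1, 2 and 3, against 8.79, 10.1 and 8.93 CPM in control hearts 1, 2 and 3, from 65 to 192 counts per library. The sgRNA7 values lay close together and the highest of them was under the lowest control value by a wide margin. The level in sgRNA7 hearts was 44.3% of control, or 37.0% to 52.9% at ±2 SE (log2 -1.18, SE 0.13; edgeR adjusted p = 1.95e-04). Pnpla3 was also the gene of the 10 with a change above 1.5-fold (glmTreat adjusted p = 0.0234), where 0.0941% of tested genes were called lower. At 0.789 ± 0.0780 CPM per kb in sgRNA7 hearts and 1.79 ± 0.14 in control hearts (SD, n = 3 each) it was the least abundant of the 10 genes in both groups.

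Pnpla2 (chr7:141455188-141460743, plus strand), the lipase that takes the first fatty acid from triglyceride and the most abundant of the 10 genes per kb in both groups, did not pass the test. It had 168, 207 and 189 CPM in sgRNA7 hearts 1, 2 and 3, against 193, 196 and 198 CPM in control hearts 1, 2 and 3. The sgRNA7 hearts lay on both sides of the narrow control range. Its log2 fold change was -0.06 (SE 0.07), and ±2 SE spans 87.4% to 105% of control.

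G0s2 (chr1:193272160-193273188, minus strand), the small protein that binds and blocks Pnpla2, had 27.3, 25.4 and 20.8 CPM in sgRNA7 hearts, against 26.7, 24.5 and 30.2 CPM in control hearts, with overlapping groups (log2 -0.14, SE 0.11; 78.2% to 105% of control at ±2 SE). The ratio of G0s2 to Pnpla2 RNA per kb, inhibitor to lipase, was 0.526, 0.397 and 0.354 in sgRNA7 hearts, against 0.446, 0.403 and 0.492 in control hearts. It differed by less than the spread between libraries (two-sided exact permutation p = 0.7), and its log2 difference turned from -0.09 to 0.04 without sgRNA7 3.

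Lipe (chr7:25379527-25398486, minus strand), the hormone-sensitive lipase that acts mainly on diacylglycerol, had 33.7, 35.3 and 40.4 CPM in sgRNA7 hearts, against 34.1, 35.9 and 42.5 CPM in control hearts. The 2 sets of values were nearly alike in level and spread (log2 -0.04, SE 0.09; 85.4% to 110% of control at ±2 SE). Of its exon bases, 17.9% are shared with 4732471J01Rik on the opposite strand, a gene with 0.640 to 1.45 CPM in sgRNA7 hearts and 0.579 to 1.38 CPM in control hearts, and strand was not stated for the counting. The other overlaps covered at most 2.04% of the exon bases of Lipe, Pnpla3 and Plin4.

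Dgat2, the triglyceride synthase found at the endoplasmic reticulum and on droplets (chr7:99153663-99182713, minus strand), had 109, 116 and 107 CPM in sgRNA7 hearts 1, 2 and 3, against 145, 155 and 160 CPM in control hearts 1, 2 and 3. The groups stood well apart relative to their own spread. The level in sgRNA7 hearts was 72.1% of control, or 66.6% to 77.9% at ±2 SE (log2 -0.47, SE 0.06; edgeR adjusted p = 3.71e-04). Dgat1 (chr15:76502015-76512021, minus strand), the unrelated enzyme that carries out the same reaction in the endoplasmic reticulum, had 33.0, 35.5 and 30.9 CPM in sgRNA7 hearts, against 36.1, 32.2 and 37.8 CPM in control hearts. Its groups overlapped (log2 -0.10, SE 0.08; 84.1% to 104% of control at ±2 SE).

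The 2 synthases were set against each other within each library. The ratio of Dgat2 to Dgat1 RNA per kb was 3.96, 3.94 and 4.17 in sgRNA7 hearts 1, 2 and 3, against 4.84, 5.78 and 5.10 in control hearts 1, 2 and 3. It was lower in 3 of 3 sgRNA7 hearts, with a log2 difference of -0.38 (two-sided exact permutation p = 0.1, the smallest possible). Dgat2 was the more abundant of the pair in every library.

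Per kb of deposited exon length, on which it depends, the order of the 10 genes was nearly the same in both groups. In sgRNA7 hearts it ran from Pnpla2 (69.1 ± 7.20 CPM per kb) through Dgat2 (49.1 ± 2.11), Plin5 (33.8 ± 1.68), Plin3 (29.2 ± 0.474), G0s2 (29.1 ± 4.01), Plin4 (21.7 ± 0.845), Plin2 (16.7 ± 1.26), Dgat1 (12.2 ± 0.843) and Lipe (8.06 ± 0.770) to Pnpla3 (0.789 ± 0.0780; SD, n = 3). Of neighbours in that order, Plin3 and G0s2 overlapped between libraries. In control hearts Pnpla2 (72.0 ± 1.03) and Dgat2 (68.1 ± 3.39) overlapped at the top, and so did G0s2, Plin3 and Plin4 in the middle (32.2 ± 3.41, 29.0 ± 1.94 and 26.3 ± 1.81; SD, n = 3). Pnpla2 and Dgat2 thus stood apart in the sgRNA7 libraries and overlapped in the control libraries.

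**Figure D3:**
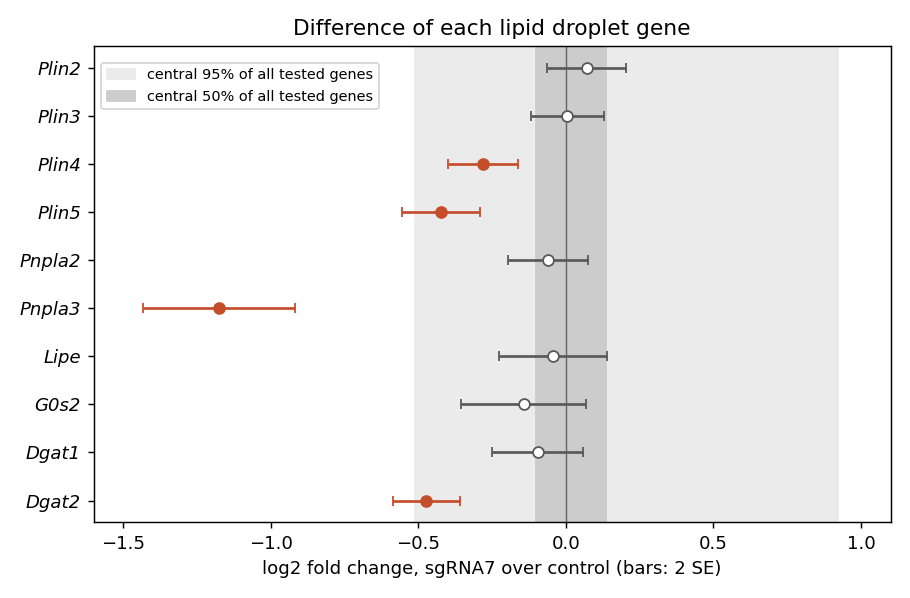
log2 fold change of each gene, sgRNA7 over control (x axis), with bars of 2 SE; filled points passed an adjusted p of 0.05 in edgeR, and the grey bands hold the central 50% and 95% of all tested genes. Pnpla3 at -1.18 lies outside the wider band, which starts at -0.51, and Dgat2, Plin5 and Plin4 lie inside it.

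Markers of heart muscle and of other tissues in the samples moved too, and their values stand beside these calls. The 8 heart muscle markers were abundant in every library, with a summed level of 69760 to 73871 CPM in sgRNA7 hearts and 82659 to 85761 CPM in control hearts. Of them 5 were called lower (Tnnt2, Tnni3, Myh6, Myl3 and Atp2a2) and 0 higher, beside 4.74% lower and 4.93% higher over all tested genes. The markers' median log2 fold change was -0.26. DESeq2 and voom called 8 lower, and edgeR called 1 (Tnnt2) without control 3, 3 without sgRNA7 3 and 0 with Myl7 as a covariate. Lower calls over all genes fell in these fits to 198, 328 and 82, against 705. At an unadjusted p below 0.05 in edgeR, 8, 8 and 5 of the markers were lower. In a bulk sample, fewer heart muscle cells and less RNA per cell cannot be told apart. As a ratio to the geometric mean of the 8 markers in the same library, a comparison added after the data were seen, Plin4 stood at 28.0, 28.5 and 26.9 per 1000 in sgRNA7 hearts, against 27.4, 27.5 and 29.8 in control hearts, with overlapping groups (exact permutation p = 0.8). Plin5 stood at 12.3, 13.9 and 12.6 per 1000 in sgRNA7 hearts, against 13.3, 14.9 and 15.3 in control hearts, and overlapped as well (exact permutation p = 0.2). Dgat2 stood at 19.3, 21.5 and 19.7 per 1000 in sgRNA7 hearts, against 22.0, 24.2 and 23.9 in control hearts, and Pnpla3 at 0.765, 0.807 and 0.668, against 1.34, 1.58 and 1.33. For these last genes the groups did not overlap (exact permutation p = 0.1 for each, the smallest possible). On this scale the log2 differences were -0.92 for Pnpla3, -0.21 for Dgat2, -0.16 for Plin5 and -0.02 for Plin4, against log2 fold changes of -1.18, -0.47, -0.42 and -0.28 in CPM. Each gene was divided by the same marker level, so all of these differences shift by about the same amount by construction. The Dgat2 groups were parted by a narrow gap, between 21.5 in sgRNA7 2 and 22.0 in control 1.

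Atrial transcripts differed strongly between libraries. The summed level of 7 atrial markers was 1927, 1308 and 2883 CPM in sgRNA7 hearts 1, 2 and 3, against 85.3, 2040 and 67.8 CPM in control hearts 1, 2 and 3; Sln was at 0 in control 3, and Bmp10 was at 0, 0 and 0.112 CPM in sgRNA7 hearts 1, 2 and 3, against 0.0598, 102 and 0.0522 CPM in control hearts 1, 2 and 3. Of the 6 tested atrial markers edgeR and DESeq2 called 0, also at an unadjusted p below 0.05, whereas voom called 6 higher and edgeR called 3 higher without control 2. Control 2 was the 1 control whose summed atrial level was within the sgRNA7 range, but its Bmp10 level was far above that of every sgRNA7 heart, so its atrial makeup was not matched to theirs. In control 2 Pnpla3 was at 10.1 CPM, Dgat2 at 155, Plin5 at 94.9 and Plin4 at 176, each above every sgRNA7 heart. With Myl7, an atrial myosin light chain, as a covariate, Pnpla3 and Dgat2 kept their calls (log2 -1.28 and -0.44, edgeR adjusted p 0.0065 and 0.0291). Plin5 and Plin4 lost theirs (log2 -0.36 and -0.17, edgeR adjusted p 0.119 and 0.412). Lower calls over all genes also fell to 82, against 705 without the covariate. Myl7 itself was higher in every sgRNA7 heart (371 to 914 CPM) than in any control heart (at most 332 CPM). A kept or lost call therefore cannot tell atrial tissue from the contrast between groups. With controls 1 and 3 left out, control 2 is the only control and the sgRNA7 hearts alone give the spread. The log2 fold changes were then -1.31 for Pnpla3, -0.49 for Dgat2, -0.43 for Plin5 and -0.21 for Plin4. The part of atrial tissue in these calls was not tested.

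Fat cells hold far more of several of these RNAs than heart muscle does, so their markers were read as well. Of 9 fat cell markers, Retn was at 0 in all libraries, Lep in 5 of 6, and Adipoq, Plin1 and Cidec reached at most 2.71, 3.51 and 1.58 CPM, each in sgRNA7 2. Ucp1, the uncoupling protein of brown fat, had 0.0426, 28.2 and 2.57 CPM in sgRNA7 hearts 1, 2 and 3, against 0.179, 2.69 and 0.157 CPM in control hearts 1, 2 and 3. Cidea, a droplet fusion protein, was at 26.3 to 33.5 CPM in sgRNA7 hearts and 27.3 to 31.3 CPM in control hearts, and without it the summed level of the other 8 was 0.341, 37.0 and 4.63 CPM in sgRNA7 hearts, against 0.359, 3.53 and 0.261 CPM in control hearts. The sgRNA7 2 library, which held most of this signal, also had the highest Plin2 and Pnpla2 values. With the summed level of all 9 markers as a covariate, Cidea included, the same 4 genes were called lower. They were Pnpla3, Dgat2, Plin5 and Plin4 (log2 -1.20, -0.50, -0.45 and -0.28). That sum was 26.7, 70.5 and 30.9 CPM in sgRNA7 hearts, against 31.7, 30.8 and 29.4 CPM in control hearts. Cidea made up most of it outside sgRNA7 2, so the covariate mainly set that library apart. The part of fat cells in the calls was not otherwise tested.

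Of 8 mesothelial markers, 6 were higher (Msln, Krt18, Upk1b, Krt19, Krt8 and Lrrn4) and 1 lower (Wt1). The shares over all tested genes were 4.93% higher and 4.74% lower. The summed level of the 8 markers was 34.5 to 59.7 CPM in sgRNA7 hearts and 28.4 to 29.5 CPM in control hearts. With Myl7 as a covariate 1 was higher and 0 lower, where calls over all genes fell to 44 higher and 82 lower. Wt1 lost its call without sgRNA7 1, sgRNA7 3, control 1 or control 3, and Lrrn4 without sgRNA7 1, sgRNA7 2, control 1 or control 3 (highest adjusted p 0.1513 and 0.1873). Of 6 macrophage markers 0 were called by edgeR, DESeq2 or voom (2 lower at an unadjusted p below 0.05 in edgeR), while edgeR called 2 lower without a filter and 1 lower with Myl7 as a covariate. Their summed level was 95.1 to 107 CPM in sgRNA7 hearts and 109 to 115 CPM in control hearts. The part of mesothelial tissue in the results was not tested.

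**Figure D4:**
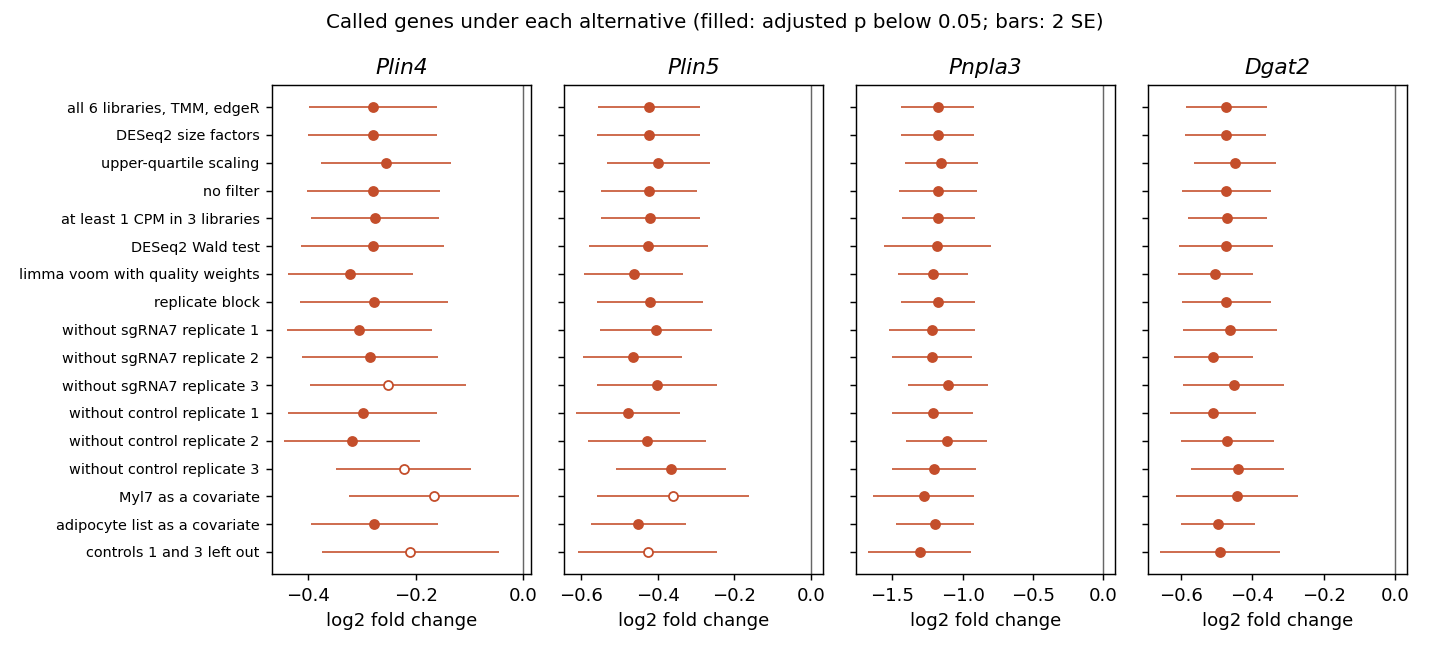
log2 fold change, sgRNA7 over control (x axis, separate scale per panel), of the 4 genes called lower, with all 6 libraries and under each of the 16 alternatives, 1 line each; bars are 2 SE and filled points passed an adjusted p of 0.05. Pnpla3 and Dgat2 are filled on every line, Plin5 is open on 2 lines and Plin4 on 4.

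Around the 10 genes, the other parts of the droplet pathway were read from lists. The count of each list is to be set beside the 4.74% lower and 4.93% higher over all tested genes. Of 15 tested genes of droplet formation, coat and breakdown, 2 were lower and 0 higher, with a median log2 fold change of -0.03. They were Fitm1 and Fitm2, the proteins of the endoplasmic reticulum that let triglyceride bud into droplets. Fitm2 had 41.2, 32.9 and 37.0 CPM in sgRNA7 hearts, against 46.4, 61.9 and 54.1 CPM in control hearts (log2 -0.55, SE 0.11; edgeR adjusted p = 0.0212). Fitm1, the form of striated muscle, had 87.5, 100.5 and 86.8 CPM in sgRNA7 hearts, against 108, 109 and 119 CPM in control hearts (log2 -0.29, SE 0.07; edgeR adjusted p = 0.0138). Fitm1 lost its call without sgRNA7 3 or control 3 (adjusted p 0.0767 and 0.111), and Fitm2 without sgRNA7 2, sgRNA7 3 or control 3 (0.0561, 0.0752 and 0.0928), so that 0 genes of the list were called without sgRNA7 3 or control 3 and 1 without sgRNA7 2. Abhd5, the activator of Pnpla2, was at 39.3, 36.4 and 37.6 CPM in sgRNA7 hearts, against 39.5, 38.5 and 40.6 CPM in control hearts, and was not called (log2 -0.06, SE 0.06).

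Of 20 tested genes of glycerolipid synthesis upstream of the DGAT enzymes, 3 were lower and 0 higher, beside 4.74% and 4.93% of all tested genes. At an unadjusted p below 0.05 in edgeR, 6 of the list were lower and 1 higher. The list's median log2 fold change was -0.08. Lpin1, the phosphatidate phosphatase that makes the diacylglycerol used by the DGAT enzymes, had 67.8, 67.6 and 71.7 CPM in sgRNA7 hearts 1, 2 and 3, against 100.1, 111 and 121 CPM in control hearts 1, 2 and 3. The groups stood far apart (log2 -0.68, SE 0.07; edgeR adjusted p = 1.13e-04), and the call held under all 16 alternatives, with log2 values from -0.75 to -0.61. Gpd1, which makes glycerol 3-phosphate, averaged 48.8 ± 5.33 CPM in sgRNA7 hearts and 63.3 ± 3.77 CPM in control hearts (SD, n = 3 each; log2 -0.38, adjusted p = 0.00916 in edgeR). Gpam, the mitochondrial enzyme that adds the first fatty acid, averaged 166 ± 11.2 CPM in sgRNA7 hearts and 201 ± 18.4 CPM in control hearts (SD, n = 3 each; log2 -0.28, adjusted p = 0.0296 in edgeR). Gpd1 lost its call without control 3 (adjusted p 0.0835) and Gpam without sgRNA7 2, sgRNA7 3, control 2 or control 3 (0.0565, 0.0801, 0.0875 and 0.163), which left Lpin1 as the 1 gene called without control 3. Without sgRNA7 1 or sgRNA7 2, 1 gene of the list was called higher.

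Of 13 genes of fatty acid delivery and uptake, 0 were called by edgeR (2 lower and 0 higher at an unadjusted p below 0.05), while DESeq2 called 1 lower and voom 1 lower and 1 higher; without sgRNA7 1, edgeR called 1 lower. Their median log2 fold change was -0.04. Of 17 tested genes known to respond to fatty acids or fasting, 1 was higher and 5 were lower, with a median of -0.03. The shares over all tested genes were 4.93% higher and 4.74% lower. The 5 lower were Acadvl, Hadha and Hadhb of fatty acid oxidation, the malonyl-CoA decarboxylase Mlycd and the uncoupling protein Ucp2, with log2 fold changes between -0.25 and -0.17. These calls changed with single libraries: 0 lower genes were called without control 1 or control 3, 1 without sgRNA7 3, 2 without sgRNA7 1 and 3 without control 2, and 0 higher genes without sgRNA7 3 or control 2. Lower calls over all genes fell from 705 to 368 without control 1, 198 without control 3 and 328 without sgRNA7 3. They were 756 without sgRNA7 1 and 592 without control 2. At an unadjusted p below 0.05 in edgeR, 6 genes of the list were lower in each of these fits.

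Of 20 regulators of droplet genes, 6 were lower and 1 higher, beside 4.74% lower and 4.93% higher over all tested genes. The regulators' median log2 fold change was -0.07. Ppargc1a, a coactivator of oxidative genes (log2 -0.81, SE 0.07; edgeR adjusted p = 5.34e-05), had the smallest p, followed by Lpin1, which also acts as a coactivator and was counted above. Rxrg, a partner of the PPAR receptors, had 24.7, 30.3 and 24.1 CPM in sgRNA7 hearts, against 39.95, 36.7 and 39.4 CPM in control hearts (log2 -0.55, SE 0.09; edgeR adjusted p = 0.00167). Ppara, the fatty acid receptor that drives many droplet and oxidation genes in heart, had 59.2, 46.7 and 45.4 CPM in sgRNA7 hearts, against 67.9, 70.8 and 81.0 CPM in control hearts (log2 -0.53, SE 0.11; edgeR adjusted p = 0.0194). Its call was lost without sgRNA7 2 or control 3 (adjusted p 0.107 and 0.0653). Esrra (log2 -0.23) was lower and Esrrb (log2 0.46) higher, both orphan receptors; Esrra lost its call without sgRNA7 3 or control 3 (0.0832 and 0.133), and Esrrb without any 1 library except sgRNA7 2 (0.0564 to 0.104). Without control 3, 3 regulators were called lower and 0 higher.

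**Figure D5:**
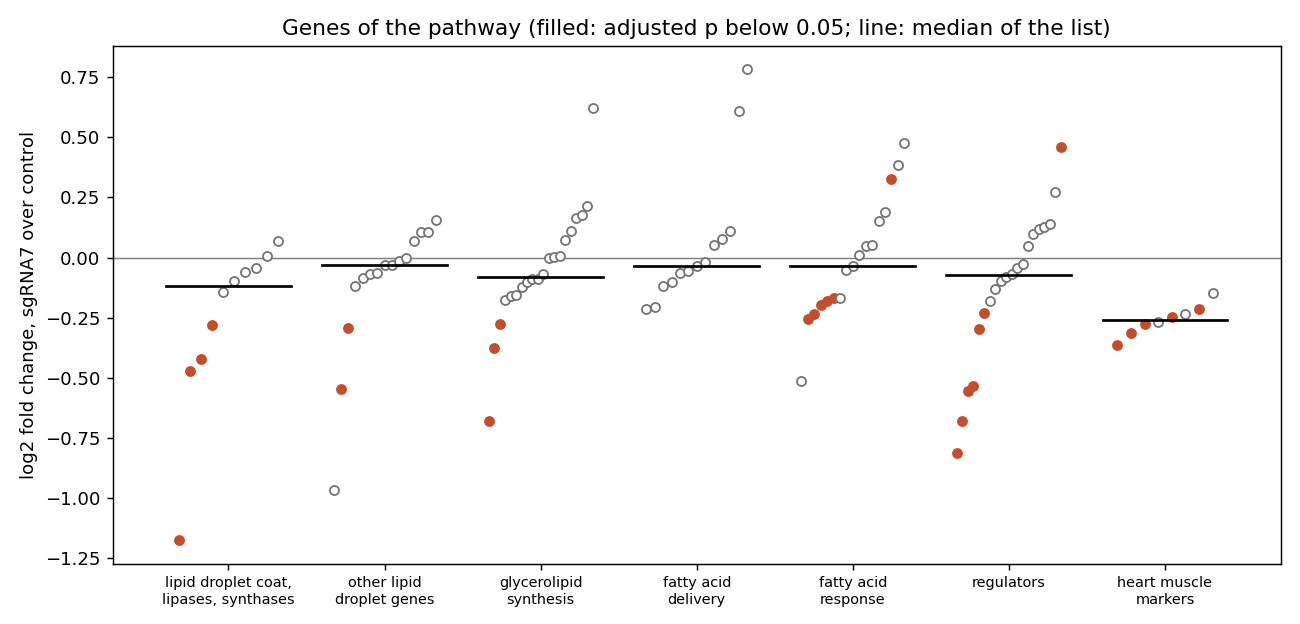
log2 fold change, sgRNA7 over control (y axis), of the tested genes of each list, ordered by value within the list; filled points passed an adjusted p of 0.05 in edgeR and the black line is the median. The median is -0.12 for the 10 genes, between -0.08 and -0.03 for the other pathway lists, and -0.26 for the heart muscle markers.

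Pnpla3, the gene of the 10 with the smallest p, was compared for likeness of pattern with 12816 other tested genes. These had a mean of at least 1 CPM, and symbols of Gm number or Rik form were left out. Likeness was Pearson's r of log2 CPM, with a small constant added, over the 6 libraries. The closest were Ipo13, an importin (r = 0.996), Mpc1, a subunit of the mitochondrial pyruvate carrier (r = 0.996), the T-type calcium channel gene Cacna1g (r = 0.995), the growth hormone receptor gene Ghr (r = 0.994) and the interferon gamma receptor gene Ifngr2 (r = 0.994). Each was called lower, and their log2 fold changes ran from -0.43 to -0.19, all smaller in size than that of Pnpla3; Mpc1 kept its call only without sgRNA7 2, and its adjusted p without any other library ran from 0.0647 to 0.144. All 6 points share the split into 2 groups, so these values describe the shared step between groups more than variation within them.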

How the data were processed

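RNA from mouse heart tissue was sequenced in 6 libraries, 3 per group. The authors deposited 1 table of raw read counts per gene. The submitters' processing notes list cutadapt, FastQC, featureCounts, STAR and mm10; versions, annotation and strand setting are not stated there. Each library has 2 deposited count columns, 1 per mate. Their values were identical for all genes, and each pair was used once.

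The tests used genes that passed edgeR's filterByExpr (14879 of 35976), TMM scaling and edgeR's robust quasi-likelihood test (version 4.0.16, R 4.3.3), with p-values adjusted by Benjamini-Hochberg over all tested genes and a threshold of 0.05. A change above 1.5-fold was tested with glmTreat. CPM per kb divides CPM by the deposited exon length. Ratios within a library were compared by a two-sided exact permutation test. The steps were tested on simulated counts. Replicates of a group differed by more than counting error in every pair (chi-square per degree of freedom 3.95 to 14.4).

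Alternatives were other scalings and filters, DESeq2 (1.42.0), limma voom with quality weights (3.58.1), a replicate block, leaving out each library, Myl7 or the fat cell markers as a covariate, and control 2 as the only control. The 10 genes and the lists were chosen with earlier results of these data known. Named genes are the 10, list genes past the threshold (at most 6 per list, by p), the 5 closest in pattern to Pnpla3 and genes within 100 kb of Plin5; Abhd5 and uncalled marker genes were named after their values were seen. Of 137 list symbols, 136 were matched. A gene that this rule picks is not reported here.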

Additional observations from a re-analysis of the deposited data

How the results depend on the processing

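Of 160 values (10 genes under 16 alternatives), 154 kept their side of the threshold, 6 calls were lost, all of Plin4 or Plin5, and 0 were gained; 3 to 4 genes were called lower without any 1 library, and 0 higher under every alternative. With Myl7 as a covariate, 2 of the 10 were called lower, where lower calls over all genes also fell to 82, against 705 without the covariate. With controls 1 and 3 left out, log2 fold changes were -1.31 for Pnpla3, -0.49 for Dgat2, -0.43 for Plin5 and -0.21 for Plin4.

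With Myl7 as a covariate, 0 other droplet genes, 1 glycerolipid synthesis gene, 0 fatty acid response genes and 2 regulators were lower, and 0 response genes and 0 regulators higher. Over all genes, 82 were then called lower and 44 higher. With controls 1 and 3 left out, the median log2 fold change was -0.06 for glycerolipid synthesis genes, -0.02 for response genes and -0.08 for regulators. Voom called 1 glycerolipid synthesis, 1 delivery and 3 response genes higher and 1 delivery gene lower; DESeq2 called 1 delivery gene lower. Without a filter, 2 delivery genes were lower and 3 response genes higher; with upper-quartile scaling, 2 response genes were lower and 2 higher; with the fat cell covariate, 1 synthesis gene was higher and 2 delivery genes lower. Without any 1 library, lower calls ran from 0 to 2 for other droplet genes, 1 to 4 for glycerolipid synthesis, 0 to 1 for delivery, 0 to 5 for response and 3 to 6 for regulators, and higher calls from 0 to 1 for synthesis, response and regulators. Over all genes, lower calls in these fits ran from 198 to 756 and higher calls from 188 to 921. The cause was not tested.

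The replicate numbers are shared between groups, and the labels do not say how they were given. Same-numbered libraries did not deviate together (r = 0.0039, -0.11 and -0.08), which cannot show whether they shared any handling. With the replicate block 4 of the 10 genes were lower, 1 other droplet gene and 2 response genes. The ratio of G0s2 to Pnpla2 could not pass 0.05 in any setting. The smallest exact permutation p for 3 against 3 is 0.1, and fewer libraries allow no smaller one. Its log2 difference of -0.09 became 0.058 with controls 1 and 3 left out and ran from -0.25 to 0.0355 without any 1 library. With 3 libraries a group, Pnpla3, with 65 to 192 counts a library, carries the most counting error of the 10.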
